A study of Mus musculus with 40 samples.

Results

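The genes described here are 34 genes of glucose uptake, glycolysis, lactate exchange, glycogen turnover and pyruvate entry, taken by symbol from a table of 24060 gene symbols counted in 40 libraries of mouse striatum. Of these, 3 serve glucose entry and phosphorylation (Slc2a1, Hk1, Hk2), 14 the steps of glycolysis, 5 lactate (Ldha, Ldhb, Slc16a1, Slc16a3, Slc16a7), 8 glycogen (Pygb, Pygm, Pygl, Gys1, Gbe1, Ugp2, Ppp1r3c, Ppp1r3g) and 4 the handling of pyruvate (Pdk2, Pdk4, Pdha1, Pcx). All 34 passed the filter on low counts in every comparison. The libraries form 10 groups of 4. RiboTag is a haemagglutinin-tagged ribosomal protein, here delivered to the striatum by an AAV with a cell type-selective promoter, so that immunoprecipitation (IP) recovers RNA bound to ribosomes of the cells that express the tag, and the input is the RNA of the whole lysate. The astrocyte cohort, with the group label Control in wild-type C57/BL6NTac mice, has 4 input and 4 IP libraries of the same 4 animals. The labels do not say which RiboTag AAV it received, and it was taken as the astrocyte RiboTag (GfaABC1D promoter) from the methods of the study. The neuron cohort has 4 input libraries and 4 IP libraries (hSYN1 promoter) of wild-type C57/BL6NTac mice, with different animal identifiers for IP and input, though the titles number both from 1 to 4. AAV were injected at 6 weeks in these mice. The SAPAP3 cohort has input and IP of 4 wild-type (WT) C57/BL6J mice and 4 SAPAP3 knockout (KO) mice with a disrupted Dlgap3 gene. The strain of the KO mice is given as C57/BL6J-Dlgap3 KO. They received the AAV at 4.5 months, and no injection age is given for the WT mice of this cohort. For the IP of this cohort the labels do not say which cell type carried the tag. A further 4 WT and 4 KO libraries hold bulk striatal RNA without IP, with the strain C57/BL6NTac given for both genotypes. The promoters restrict the tag to a cell class by their own activity, not by lineage, and the virus reaches the injected part of the striatum only.

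Glucose enters brain cells through GLUT1 (Slc2a1) and related carriers, is phosphorylated by hexokinase, and is split by the glycolytic enzymes into pyruvate, which lactate dehydrogenase converts to lactate and pyruvate dehydrogenase passes to the mitochondria. Astrocytes hold most of the glycogen of the adult brain, and monocarboxylate transporters of the Slc16a family carry lactate between cells. Several steps are served by isozymes with known cell preferences, such as aldolase C in astrocytes and neuron-specific enolase (Eno2) in neurons.

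Total counts ran from 24697181 to 30008152 per library in astrocyte-cohort inputs, from 44039366 to 48389014 in astrocyte IP, from 50996128 to 55562139 in neuron-cohort inputs, from 74406514 to 84109800 in neuron IP, from 23438112 to 47699278 in the SAPAP3 cohort and from 54689535 to 75203125 in bulk striatum. All 10 astrocyte markers were called higher in astrocyte IP than in its input (median log2(FC) 2.97), and 10 of 10 were higher in the IP of the SAPAP3 cohort WT mice (2.16). In neuron IP, 3 of 9 neuron markers were called higher, with a median of 0.80. Astrocyte markers had a median of -0.63 in neuron IP, with 3 of 10 called lower. Neuron markers had a median of -0.79 in astrocyte IP, with 2 of 9 called lower. In both IP groups, markers of the other cell class were thus only partly depleted. Markers of microglia and endothelium fell further, with medians of -3.42 or below in the IP of all 3. Oligodendrocyte markers summed to 6905 to 10140 CPM (counts scaled to the total of the library) in SAPAP3 WT IP against 5641 to 6567 in its input, and 3 of 8 were called higher there. Xist and Ddx3y placed the 4 astrocyte-cohort mice as male and all neuron-cohort libraries as female, so that sex and cohort cannot be told apart in comparisons between them. In the genotype comparisons 1 of 4 bulk WT mice (replicate 3) was female and all bulk KO mice were male, and each genotype of the SAPAP3 cohort had 1 female of 4. Dlgap3 counts of KO and WT mice did not overlap in input, IP or bulk, with 144 to 161 CPM in bulk KO against 232 to 385 in bulk WT.

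Before levels are compared, 4 members had to be set apart, because most 75-base stretches of their transcripts are repeated elsewhere in the mouse genome. Every such window of each member's curated RefSeq transcripts was searched in GRCm38.p6, the assembly named mm10. For Pgk1 (phosphoglycerate kinase) 91.38% of windows had an identical match outside the gene, for Pgam1 (phosphoglycerate mutase) 88.85%, for Gapdh (glyceraldehyde-3-phosphate dehydrogenase) 80.94% and for Eno1 (the widely expressed enolase) 63.84%. Ldhb, Tpi1, Gpi1, Pkm and Ldha had 7.6% to 18.28%, and 21 of 34 members had none. Taken alone, a read from such a window has no unique origin, and its count can depend on how reads with several alignments were treated. By the methods of the study both ends of each fragment were read. Whether the other end would give a unique place was not examined. The coding window found most often elsewhere is shown for each of the 4, to let a reader see what a single read with no unique place looks like. No part is in capitals, since the whole window is identical at each place.
Gapdh, minus strand, chr6:125162873-125162947, found at 48 other places: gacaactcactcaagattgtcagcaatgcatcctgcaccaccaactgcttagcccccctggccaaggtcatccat
Pgk1, plus strand, chrX:106200208-106200282, found at 3 other places: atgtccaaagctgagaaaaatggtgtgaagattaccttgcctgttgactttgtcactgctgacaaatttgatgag
Pgam1, plus strand, chr19:41916703-41916777, found at 3 other places: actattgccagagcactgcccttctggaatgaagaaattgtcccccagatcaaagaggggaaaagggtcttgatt
Eno1, plus strand, chr4:150245115-150245189, found at 5 other places: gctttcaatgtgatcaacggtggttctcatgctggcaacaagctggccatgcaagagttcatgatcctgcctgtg

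The same 4 genes had the lowest ratios between cohorts in RNA that had not been selected for any cell type. Gapdh had 608 to 660 CPM in the 4 astrocyte-cohort inputs and 2.53 to 5.94 CPM in the 20 other libraries of unselected striatal RNA (neuron-cohort inputs, SAPAP3-cohort inputs and bulk). Pgk1 had 113 to 123 CPM against 17.9 to 24.7, Pgam1 77.1 to 87.9 against 19.5 to 27.4, and Eno1 9.03 to 11.3 against 0.81 to 1.86. In none of the 4 did the ranges overlap. They did not overlap either in Slc2a1, Gpi1, Pkm, Ldhb, Slc16a7 and Pdha1, of which Slc2a1 and Pdha1 have no repeated window. The share over all genes was not counted. In edgeR's quasi-likelihood test of neuron-cohort input over astrocyte-cohort input, exactly these 4 members were called lower (2.70% of all 15944 genes tested were) and none was called higher (4.75% of all genes), with Gapdh at a log2(FC) of -6.85 and the other 30 members between -0.51 and 0.80. The 5 members with an intermediate share of repeated windows had median log2 differences of -0.54 to -0.04 between the 20 libraries and the astrocyte-cohort inputs, and the 25 members with under 2% had -0.64 to 0.89. Spearman's rho between repeated share and that difference was -0.478 across the 34 genes, which share the same libraries.

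**Figure D1:**
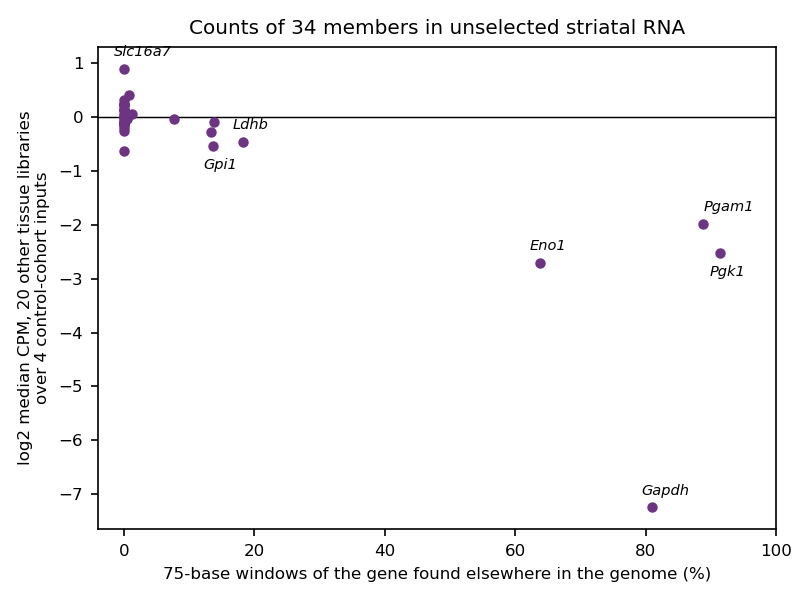
Each point is 1 of 34 members. The x axis gives the percentage of its 75-base windows with an identical match elsewhere in the genome, and the y axis the log2 ratio of its median CPM in 20 other libraries of unselected striatal RNA to its median in the 4 astrocyte-cohort inputs. Pgk1, Pgam1, Gapdh and Eno1 lie at -1.98 or below, and the other 30 members between -0.64 and 0.89.

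Another 8 symbols share windows with a member and have counts of their own. Of these, 2 differed in the other direction with at least 18.3 CPM in each of the other 20 libraries. Eno1b, a symbol with exonic windows identical to Eno1, had 0.20 to 0.36 CPM in astrocyte-cohort inputs and 18.3 to 27.4 in the other 20 libraries, and Aldoart1, a symbol with windows identical to Aldoa (aldolase A), had 0.04 to 0.14 against 27.2 to 36.7, while Aldoa itself had a log2 difference of 0.05. The 6 symbols that share windows with Gapdh had at most 5.10 CPM in any of these libraries and log2 differences of -0.76 to 4.34. The highest was Gm12070, with at most 0.04 CPM in astrocyte-cohort inputs and 0.20 to 0.56 in the other 20 libraries. With the counts of copies added to their member, Eno1 turned from lower to higher in neuron-cohort input over astrocyte-cohort input (log2(FC) 1.37) and in neuron IP over astrocyte IP (1.03). The parts of read counting and of sex in these differences were not tested. Between the neuron and astrocyte cohorts, sex and cohort cannot be told apart. The bulk KO mice were all male, as were the astrocyte-cohort mice. Gapdh had at most 4.301 CPM in bulk KO and at least 608 in astrocyte-cohort inputs. The ranges of Pgk1, Pgam1 and Eno1 did not overlap between these male groups either. For Gapdh, Pgk1, Pgam1 and Eno1, the values within a cohort are given below, and counts of calls between cohorts are given with and without them.

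In astrocyte IP over its own input, the question is which members were enriched in RNA on astrocyte ribosomes. Of 34 members, 15 were called higher and 1 lower (adjusted p under 0.05 and a log2(FC) beyond 1 in either direction), where 13.4% of all 15476 genes tested were called higher and 13.5% lower. The median log2(FC) of the members was 0.97, and that of all genes -0.02. The glycogen genes stood highest, with 7 of 8 called and a median of 2.10, followed by the 4 pyruvate genes, all called, with a median of 1.22. Of the 14 glycolysis genes 2 were called (median 0.57), of the 5 lactate genes 1 and of the 3 genes of glucose entry 1 in each direction. The other 18 members had log2(FC) of -0.55 to 0.98, and 17 of them passed the adjusted p-value alone. Counting called ones, 33 members passed it, as did 80.4% of all genes. With library sizes set to total counts in place of TMM, all log2(FC) moved by about -0.221, 11 members were called higher, and the share of higher among all called genes was 37.3% against 49.8% on TMM. In bulk samples of this kind, fewer cells of a type and less RNA per cell cannot be told apart.

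**Figure D2:**
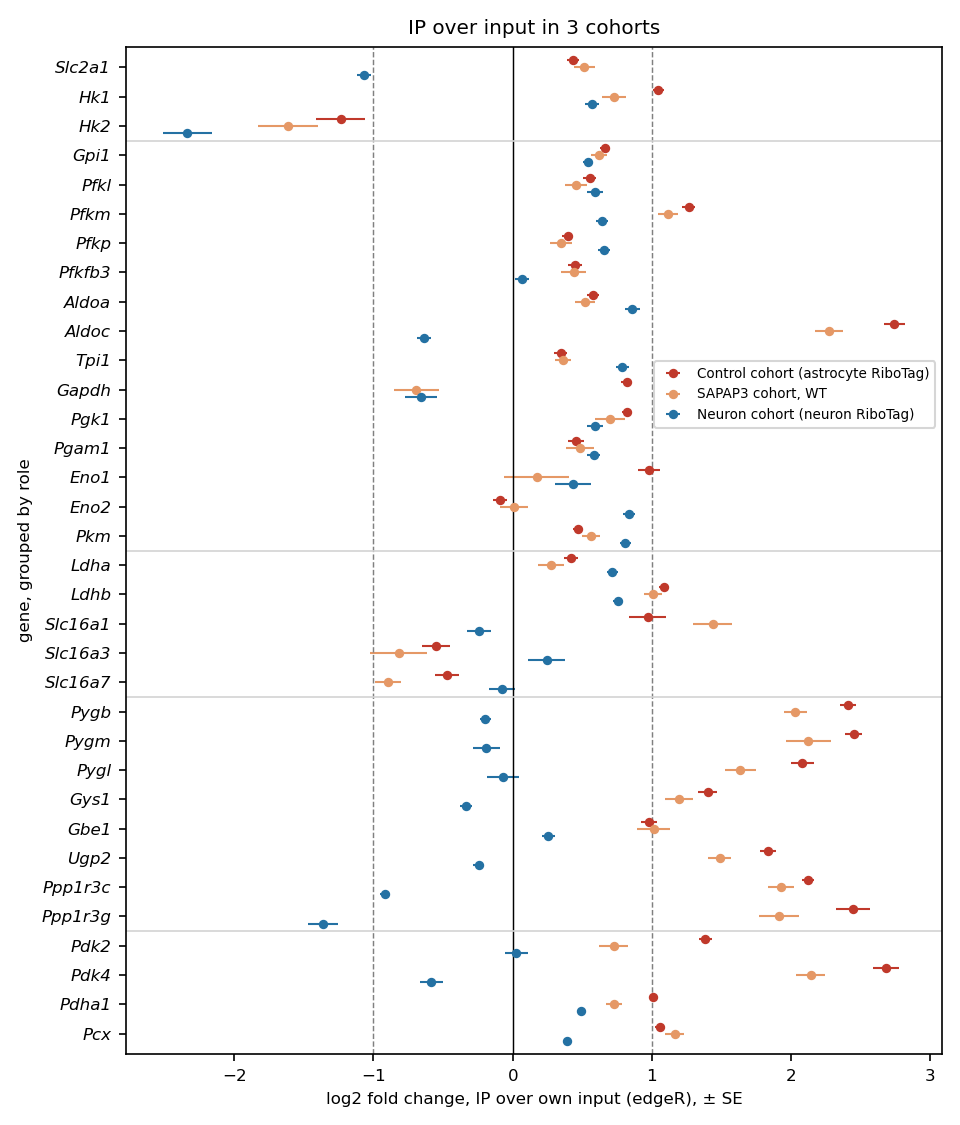
The log2(FC) of IP over own input is plotted on the x axis with its SE from edgeR for each of 34 members (y axis, grouped by role), in the astrocyte cohort (red), the WT mice of the SAPAP3 cohort (orange) and the neuron cohort (blue), 4 libraries against 4 each. Dashed lines mark the fold limit. All 8 glycogen genes lie right of 0.9 in the red and orange series, and in the blue series they lie between -1.36 and 0.26.

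Glycogen phosphorylase releases glucose units from glycogen, and its brain form Pygb was the most abundant of the 3 phosphorylase genes. Levels are given from here on as FPKM, the CPM divided by the length in kilobases of the longest curated transcript. Pygb had 56.3, 57.7, 56.5 and 53.7 FPKM in the astrocyte-cohort inputs and 262, 270, 263 and 229 in astrocyte IP. In the neuron cohort it had 54.9, 56.4, 53.4 and 51.8 in input and 40.8, 42.4, 39.1 and 41.7 in IP. Every astrocyte IP library lay above every input and every neuron IP library below. IP and input libraries did not overlap for 33 of 34 members in the astrocyte cohort and 27 of 34 in the neuron cohort. The share over all genes was not counted. The log2(FC) was 2.41 ± 0.06 (SE, adjusted p = 1.66e-11, edgeR quasi-likelihood F-test, Benjamini-Hochberg, 4 against 4) in astrocytes and -0.20 ± 0.04 in neurons, below the fold limit. Pygm, the muscle form, rose from 7.12 to 8.56 FPKM in input to 34.2 to 38.4 in astrocyte IP (log2(FC) 2.45), and Pygl, the liver form, from 2.09 to 2.32 to 6.89 to 8.56 (2.08).

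Ppp1r3c and Ppp1r3g encode regulatory subunits that bring protein phosphatase 1 to glycogen, where it activates glycogen synthase. Ppp1r3c had 24.4, 23.9, 25.0 and 27.2 FPKM in astrocyte-cohort inputs, 90.3, 98.4, 92.0 and 94.3 in astrocyte IP, 25.6, 25.5, 26.1 and 24.9 in neuron-cohort inputs and 11.3, 12.1, 11.7 and 11.9 in neuron IP. The inputs of both cohorts overlapped, while the 2 IP groups stood far apart on either side of them. Its log2(FC) was 2.12 ± 0.04 in astrocytes and -0.92 ± 0.04 in neurons. Ppp1r3g had 4.04, 3.92, 3.57 and 3.40 FPKM in astrocyte-cohort inputs and 18.04, 21.5, 15.9 and 14.3 in IP, against 4.40, 4.35, 4.95 and 3.91 and then 1.30, 1.40, 1.65 and 1.60 in the neuron cohort. It was called higher in astrocyte IP (2.44 ± 0.12) and lower in neuron IP (-1.36 ± 0.11, adjusted p = 2.15e-06, edgeR quasi-likelihood F-test, Benjamini-Hochberg).

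The synthetic arm of glycogen followed at smaller size. Ugp2, which makes UDP-glucose, rose from 28.1 to 32.5 FPKM in input to 86.3 to 99.9 in astrocyte IP (log2(FC) 1.83 ± 0.06), and Gys1, glycogen synthase, from 4.15 to 5.09 to 9.90 to 11.3 (1.40 ± 0.07). Gbe1, the branching enzyme, had a log2(FC) of 0.98 ± 0.06, just under the fold limit. In neuron IP, Ugp2 had -0.25, Gys1 -0.33 and Gbe1 0.26, all within the fold limit.

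**Figure D3:**
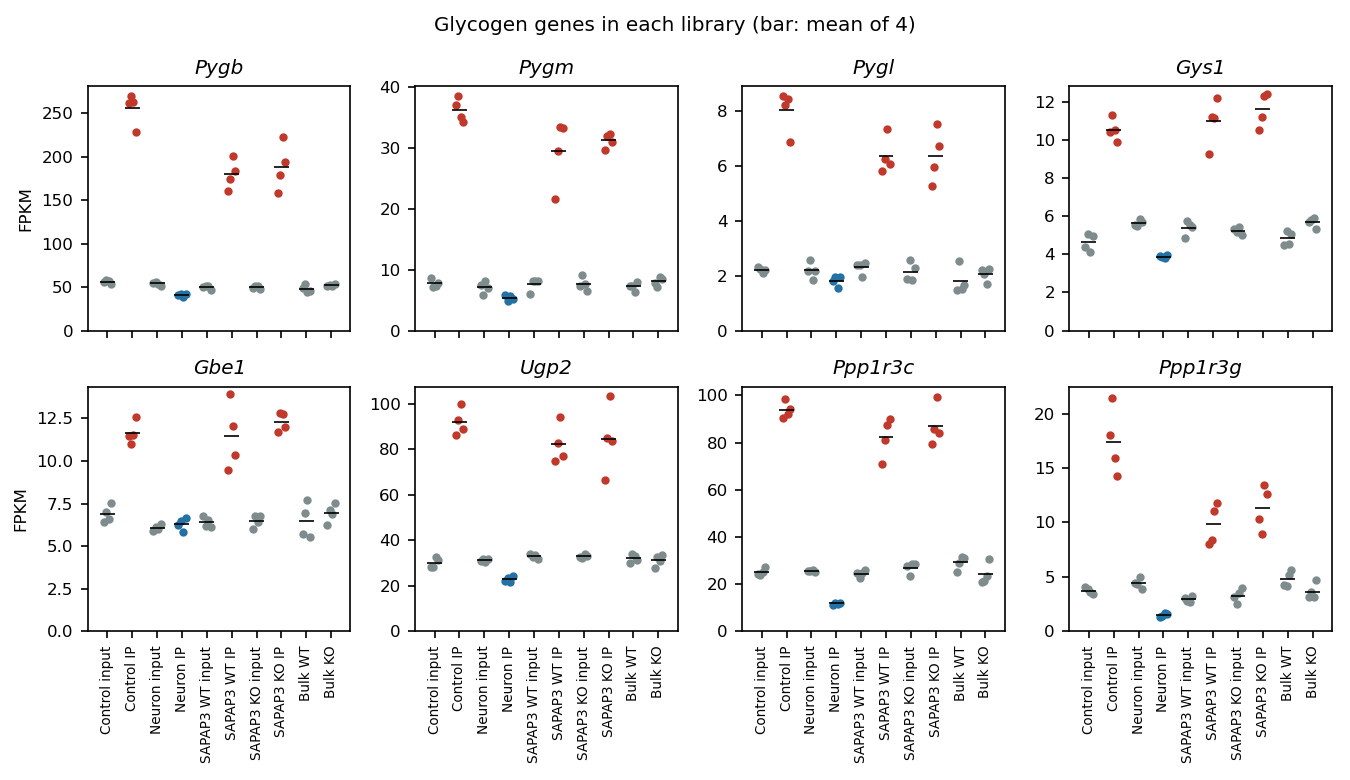
FPKM (y axis, linear from 0) of the 8 glycogen genes in each of 40 libraries, in 10 groups of 4 (x axis), with the mean as a bar. Inputs and bulk are grey, neuron IP blue and the other IP groups red. Neuron IP lies below astrocyte IP and both SAPAP3-cohort IP groups in every panel, and WT and KO points of the same kind overlap in all but bulk Gys1.

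Among the genes that decide the fate of pyruvate, Pdk4, a kinase that inactivates pyruvate dehydrogenase, had 3.46, 2.80, 2.51 and 2.51 FPKM in astrocyte-cohort inputs and 16.2, 14.4, 16.5 and 14.95 in astrocyte IP, a log2(FC) of 2.68 ± 0.09. Neuron-cohort inputs had 3.46, 2.96, 3.14 and 3.20 and neuron IP 2.10, 1.87, 1.60 and 1.81, a log2(FC) of -0.58 ± 0.09. No IP library overlapped its inputs in either cohort, as was so for most members. Pdk2, a related kinase, had 12.3 to 12.9 FPKM in astrocyte-cohort inputs and 26.2 to 29.4 in IP (1.38), but 0.03 in neurons. Pcx, pyruvate carboxylase, an enzyme that refills the citric acid cycle and in brain is attributed mainly to astrocytes, had a log2(FC) of 1.06 ± 0.04 in astrocyte IP and 0.39 ± 0.03 in neuron IP, and Pdha1, a subunit of pyruvate dehydrogenase, had 1.01 and 0.49. The calls of Pcx and Pdha1 sit at the fold limit, and on total counts both fell short of it (0.84 and 0.79).

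Aldoc, aldolase C, had the highest log2(FC) of all members in astrocyte IP. It had 243, 260, 231 and 228 FPKM in astrocyte-cohort inputs and 1400, 1547, 1349 and 1221 in IP (log2(FC) 2.74 ± 0.08, 6.69-fold), against 259, 248, 265 and 251 and then 132, 139, 145 and 154 in the neuron cohort (-0.64 ± 0.05). The 2 groups of inputs overlapped, and the IP groups lay on opposite sides of them. Its partner Aldoa had log2(FC) of 0.58 in astrocytes and 0.86 in neurons. Pfkm, the muscle form of phosphofructokinase, was the other glycolysis gene called higher in astrocyte IP (1.26 ± 0.05, from 123 to 135 FPKM in input to 246 to 275 in IP), while Pfkl had 0.55 and Pfkp 0.40. Pfkfb3, which makes the phosphofructokinase activator fructose-2,6-bisphosphate, had 0.45 in astrocytes and 0.07 in neurons.

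Eno2, neuron-specific enolase, had 332, 343, 319 and 313 FPKM in astrocyte-cohort inputs and 281, 273, 243 and 256.3 in astrocyte IP, and 306, 316, 292 and 293 in neuron-cohort inputs and 473, 478, 458 and 462 in neuron IP. In FPKM, all astrocyte IP libraries lay below their inputs and all neuron IP libraries above theirs. On the TMM scale, its log2(FC) was -0.09 ± 0.05 (adjusted p = 0.12) in the astrocyte cohort and 0.84 ± 0.04 (adjusted p = 2.42e-07, both edgeR quasi-likelihood F-test, Benjamini-Hochberg) in neurons. Eno2 was the single member of 34 whose adjusted p-value in astrocyte IP over input was above 0.05. Tpi1 (triosephosphate isomerase) had 0.79 in neurons and 0.34 in astrocytes, and Pkm (pyruvate kinase) 0.81 and 0.47. Gpi1, glucose-6-phosphate isomerase, had 0.54 and 0.66.

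The 4 repeated genes could be compared with the input of their own cohort only. Gapdh had 444, 464, 428 and 447 FPKM in astrocyte-cohort inputs and 694, 700, 646 and 659 in astrocyte IP, a log2(FC) of 0.82 ± 0.04. In the neuron cohort it had 3.68, 4.18, 3.94 and 3.73 in inputs and 2.41, 2.09, 2.27 and 1.75 in IP (-0.66 ± 0.11), and in SAPAP3 WT mice 3.15, 3.30, 3.11 and 2.33 and then 1.60, 1.35, 1.73 and 1.84 (-0.69 ± 0.16). The log2(FC) of Gapdh was thus positive in the cohort with at least 428 FPKM in every library and negative in those with at most 4.18. Pgk1 had 0.82, 0.59 and 0.70 and Pgam1 0.46, 0.58 and 0.48 in the astrocyte, neuron and SAPAP3 WT cohorts, while Eno1 had 0.98, 0.43 and 0.17 ± 0.23.

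Of the genes of glucose entry, Slc2a1 (GLUT1), which is abundant in both brain endothelium and astrocytes, had 25.6, 22.4, 23.7 and 23.7 FPKM in astrocyte-cohort inputs and 27.8, 26.9, 28.2 and 27.7 in IP (log2(FC) 0.44 ± 0.04). In the neuron cohort it had 18.7, 16.5, 16.9 and 17.8 in inputs and 7.32, 7.59, 6.73 and 7.28 in IP, and was called lower (-1.07 ± 0.05, adjusted p = 8.88e-08, edgeR quasi-likelihood F-test, Benjamini-Hochberg). Endothelial markers summed to 6.30 to 7.77 CPM in astrocyte IP against 76.6 to 96.8 in its input, and to 4.90 to 6.52 against 75.5 to 86.1 in the neuron cohort. Their part in the Slc2a1 values was not tested. Hk1, the main brain hexokinase, had a log2(FC) of 1.05 in astrocytes and 0.57 in neurons. Hk2, the form known from muscle and from activated immune cells, was called lower in both, from 1.61 to 2.42 FPKM in input to 0.61 to 1.07 in astrocyte IP (-1.24 ± 0.18) and from 1.74 to 2.86 to 0.33 to 0.53 in neuron IP (-2.34 ± 0.18). Microglial markers fell in the same IP libraries, from 856 to 1058 summed CPM to 50.2 to 56.9 in the astrocyte cohort and from 707 to 1122 to 40.6 to 63.1 in the neuron cohort, and their part in the fall of Hk2 was not tested.

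Lactate dehydrogenase genes both had positive log2(FC) in both IP groups. Ldhb, the heart form, had 315, 310, 301 and 311 FPKM in astrocyte-cohort inputs and 599, 561, 557 and 539 in IP and was called higher (1.09 ± 0.04). In neurons it had 0.75 ± 0.04. Ldha, the muscle form, had 0.42 in astrocytes and 0.72 in neurons. Slc16a1 (MCT1), a lactate carrier, had 11.7, 11.3, 13.1 and 13.7 FPKM in astrocyte-cohort inputs and 18.6, 16.5, 21.4 and 27.2 in IP (0.97 ± 0.13), and -0.24 ± 0.08 in neurons. Slc16a7 (MCT2), the carrier usually assigned to neurons, had 1.49, 1.45, 1.82 and 1.46 FPKM in astrocyte-cohort inputs and 0.89, 1.03, 0.96 and 0.97 in IP (-0.47 ± 0.09), but neuron IP was not above its own input either (-0.08 ± 0.09). Slc16a3 (MCT4), often placed in astrocytes, had 2.38 to 2.78 FPKM in astrocyte-cohort inputs and 1.37 to 1.70 in astrocyte IP (-0.55 ± 0.10), against 0.24 ± 0.13 in neurons.

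In neuron IP over input, 0 members were called higher, where 0.42% of all 16198 genes tested were, and 3 were called lower (Slc2a1, Hk2 and Ppp1r3g), where 15.8% of all genes were. By limma-voom and by DESeq2 the count of higher members was also 0, and 28 members (82.4%) had an unadjusted p under 0.05, against 73.5% of all genes. The adjusted p-value was passed by 28, against 71.3% of all genes. Of these, 25 were within the fold limit, with 17 higher and 8 lower, and their log2(FC) stayed between -0.92 and 0.86. The median of the members was 0.25, and that of all genes 0.

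The difference between cohorts was tested with an interaction term, which compares each IP with its own input. The log2(FC) was lower in neurons than in astrocytes for 14 members (19.1% of all 16371 genes tested) and higher for 0 (8.27% of all genes), with a median of -0.58 for members and 0.02 for all genes. The count of 0 higher members was the same by limma-voom and DESeq2, and 32 members had an unadjusted p under 0.05, against 72% of all genes. Without the 4 repeated genes, 13 of 30 remained lower. Of the glycogen genes 7 of 8 were among them, with Ppp1r3g at -3.81 ± 0.17, Ppp1r3c at -3.04 ± 0.06, Pygm at -2.64 ± 0.12 and Pygb at -2.61 ± 0.07. Aldoc (-3.38 ± 0.10, adjusted p = 1.10e-14) and Pdk4 (-3.27 ± 0.13, adjusted p = 1.05e-12, edgeR quasi-likelihood F-test, Benjamini-Hochberg) were the other large differences. Pdk2 (-1.36), Slc2a1 (-1.51), Slc16a1 (-1.21), Hk2 (-1.10) and Gapdh (-1.48) completed the list with Pygl, Gys1 and Ugp2. In the other direction Eno2 had 0.93 ± 0.07, Slc16a3 0.79 ± 0.17, Tpi1 0.44 ± 0.07 and Slc16a7 0.39 ± 0.14, all under the fold limit.

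Neuron IP set directly against astrocyte IP gave 17 members lower (19.4% of all 15468 genes tested) and 1 higher (8.39%), and 13 of the 17 remained without the 4 repeated genes. The higher member was Slc16a7 (1.17 ± 0.09). Its level was 1.98 to 2.54 FPKM in neuron IP and 0.89 to 1.03 in astrocyte IP, but also 2.48 to 3.08 in neuron-cohort inputs and 1.45 to 1.82 in astrocyte-cohort inputs, so the inputs of the 2 cohorts differed in the same direction. Slc2a1, at 6.73 to 7.59 FPKM in neuron IP and 26.9 to 28.2 in astrocyte IP, had a log2(FC) of -1.997 ± 0.04. Between these IP groups, cell type and sex both differed with cohort and cannot be told apart.

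Within an isozyme set, the share of 1 gene in the summed reads per kilobase does not depend on how libraries are scaled. Aldoc made up 20.5% ± 0.433 (SD, n = 4) of aldolase reads in astrocyte-cohort inputs, 53.5% ± 2.20 in astrocyte IP, 20.6% ± 1.35 in neuron-cohort inputs and 8.37% ± 0.390 in neuron IP. Pdk4 made up 18.2% of the Pdk2 and Pdk4 reads in astrocyte-cohort inputs and 35.4% in IP, against 19.7% and 14.0% in the neuron cohort. Pfkm made up 54.3% of phosphofructokinase reads in astrocyte-cohort inputs and 67.6% in IP, where Pfkp had 29.5% and 20.1% and Pfkl 16.2% and 12.3%, and Pfkm was at 47.8% and 48.0% in the neuron cohort. The phosphorylases showed another pattern, with Pygb at 84.9% in astrocyte-cohort inputs, 85.3% in astrocyte IP, 85.4% in neuron-cohort inputs and 85.1% in neuron IP, so that the composition of the set was almost the same in groups whose Pygb levels differed several-fold.

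Slc16a1 made up 74.9% of the reads of the 3 lactate carriers in astrocyte-cohort inputs, 89.1% in astrocyte IP, 71.0% in neuron-cohort inputs and 66.0% in neuron IP. Ldhb made up 73.8% and 81.7% of lactate dehydrogenase in the astrocyte cohort and 66.5% and 67.1% in the neuron cohort. Hk1 stayed above 96% of its set in every group mean. Of 84 two-sided exact permutation tests of shares (14 shares in 6 comparisons, 4 libraries against 4), 29 had an unadjusted p under 0.05, 12 in astrocyte IP, 6 in neuron IP, 11 in SAPAP3 WT IP and 0 between genotypes. All 29 were at 0.0286, the smallest p this design allows, and after Benjamini-Hochberg adjustment over the 84 tests they reached 0.083, so none passed 0.05. Even with every IP test at that p, the adjusted value would have stayed above 0.05 unless genotype tests reached it too. The adjusted tests therefore cannot decide whether shares differ between IP and input.

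**Figure D4:**
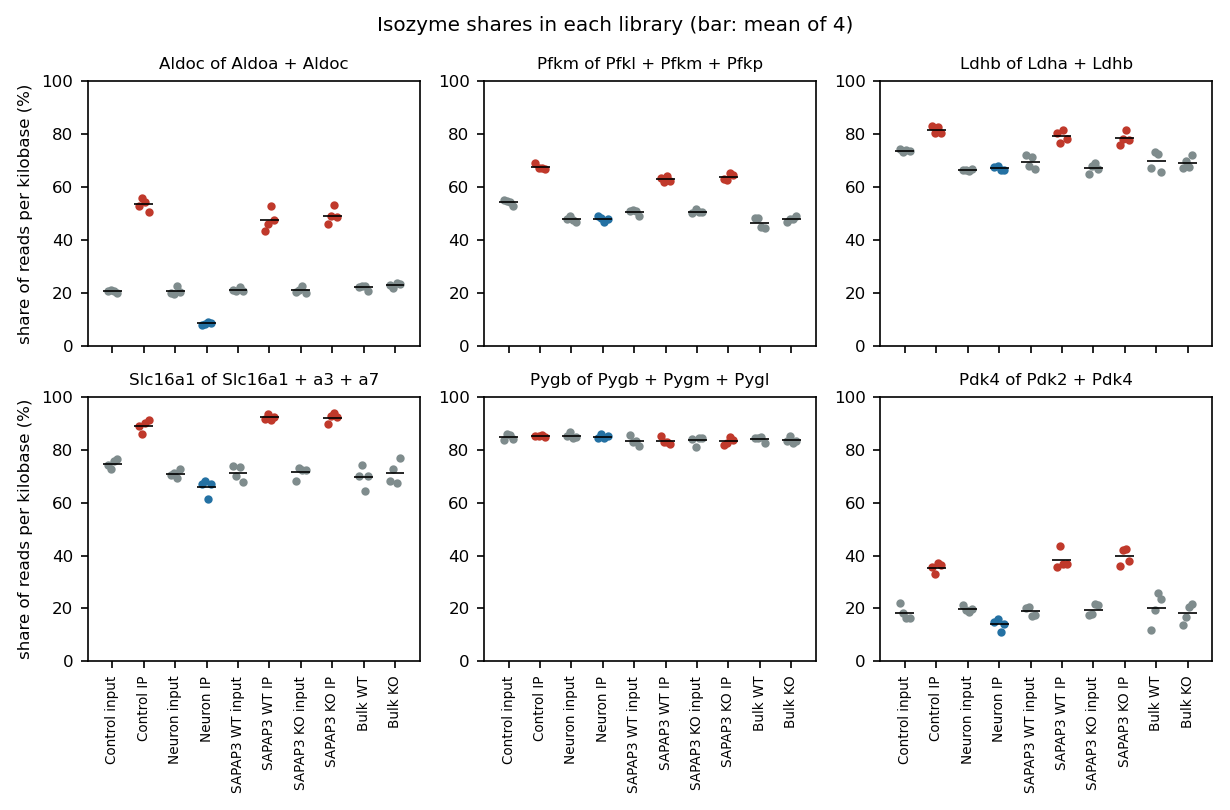
Share of 1 gene in the summed reads per kilobase of its isozyme set (y axis, percent) in each of 40 libraries, in 10 groups of 4 (x axis) with the mean as a bar. Inputs and bulk are grey, neuron IP blue and the other IP groups red. The Aldoc share is 53.5% in astrocyte IP and 8.37% in neuron IP, whereas the Pygb share stays between 83.3% and 85.4% in all group means.

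The IP of the SAPAP3 cohort, whose cell type the labels do not name, was compared with its own input in the same way, in mice not used for the astrocyte IP. In its WT mice, 14 members were called higher (10.9% of all 15587 genes tested) and 1 lower (12.1%), the latter again Hk2 (-1.61 ± 0.22). Of the 15 members called higher in astrocyte IP and the 14 called here, 12 were common to both lists. The same overlap over all genes was not counted. All 8 glycogen genes were called, from 1.01 for Gbe1 to 2.12 for Pygm, with Gbe1 at 0.999 and no longer called with the animal as a block. Aldoc had 224, 228, 243 and 232 FPKM in WT inputs and 858, 960, 1123 and 1036 in WT IP (2.27 ± 0.10). Pdk4 had 3.47, 3.78, 3.53 and 3.45 and then 11.5, 15.4, 15.04 and 13.8 (2.14 ± 0.10). Slc16a1 had 13.5, 13.5, 12.2 and 11.5 FPKM in inputs and 27.1, 39.1, 23.7 and 32.0 in IP (1.44 ± 0.14), and was called, with the oligodendrocyte sums given above also higher in the same IP libraries. Their part in the Slc16a1 value was not tested, and neither was the difference between the cohorts. On total counts 10 members were called higher, and the share of higher among all called genes was 36.4% against 47.4% on TMM.

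The IP of KO mice over their own inputs gave values close to those of WT mice. The log2(FC) in KO and WT mice was within 0.25 of each other for 32 of 34 members, and the widest gaps ran from -0.19 to 0.44 (KO minus WT). Pygb had 2.13 in KO and 2.03 in WT, Aldoc 2.31 and 2.27, Ppp1r3c 1.89 and 1.93, Pdk4 2.15 and 2.14, Pcx 1.33 and 1.16, and Slc16a7 -0.91 and -0.89. Only Slc16a3 (-0.37 against -0.82) and Hk2 (-1.33 against -1.61) differed by more than that limit.

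**Figure D5:**
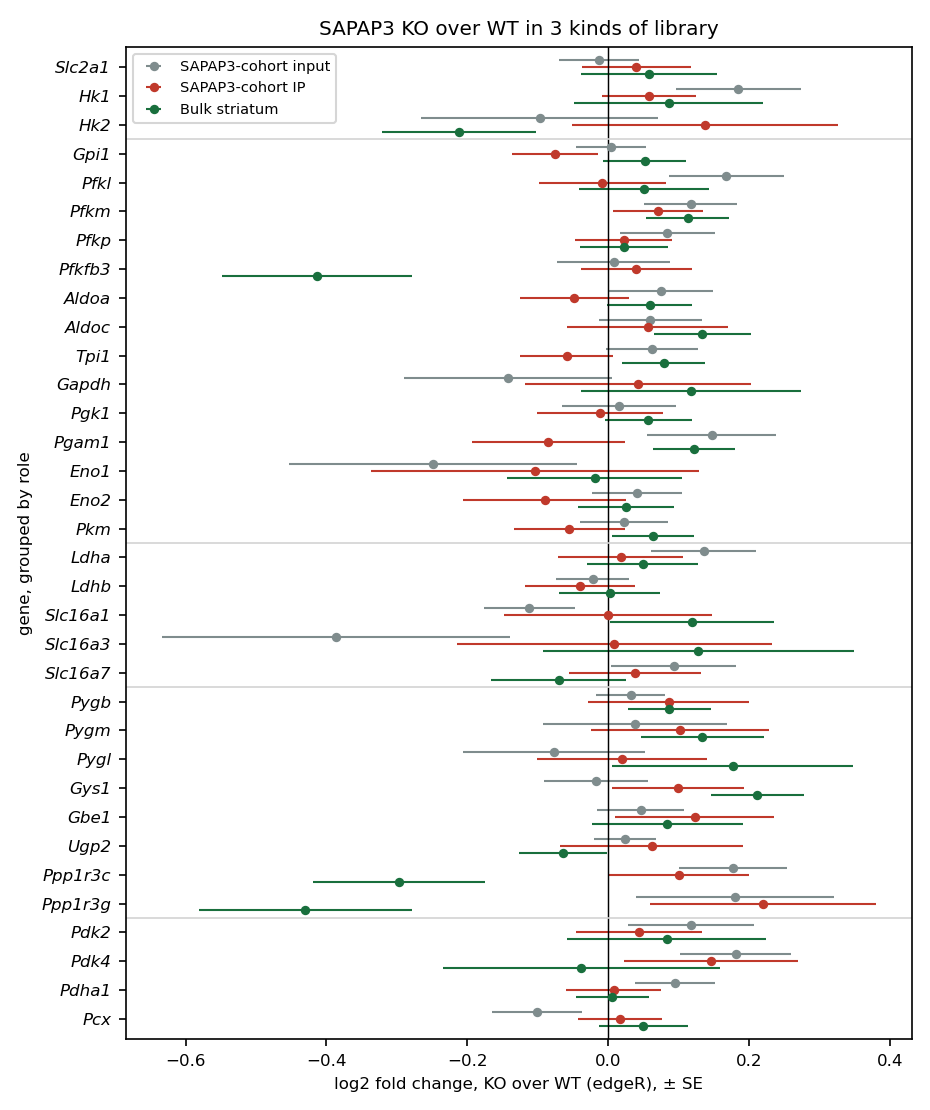
The log2(FC) of SAPAP3 KO over WT (x axis) with its SE from edgeR for each of 34 members (y axis, grouped by role), in SAPAP3-cohort input (grey), SAPAP3-cohort IP (red) and bulk striatum (green), 4 libraries against 4 each. All values lie between -0.43 and 0.22, and none passed the adjusted p-value.

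Between genotypes, 0 of 34 members passed an adjusted p of 0.05 in input, in IP or in bulk striatum, where 0.00641%, 0.0263% and 0% of all genes passed, respectively (edgeR quasi-likelihood F-test, Benjamini-Hochberg, no fold limit). DESeq2 and limma-voom also called 0 members in each. By edgeR no gene passed in bulk, not even the knocked-out Dlgap3, whose counts did not overlap there between genotypes. In counts simulated from the bulk libraries, 46.0% of genes changed by a log2 fold of 0.5 were recovered at an adjusted p under 0.05. For a log2 fold of 1.0 this was 81.6%. In the simulation 200 genes were changed and the spread of each gene was taken from a trend, whereas in the real bulk data no gene passed. The recovered percentages may therefore be too high for the real data, and differences of these sizes may go uncalled. At an unadjusted p under 0.05 there were 2 members in input, 0 in IP and 4 in bulk, against 5.57%, 2.63% and 4.94% of all genes. The log2(FC) ran from -0.39 to 0.19 in input, from -0.10 to 0.22 in IP and from -0.43 to 0.21 in bulk, with median SE of 0.07, 0.09 and 0.08. The 2 in input were Pdk4 (0.18 ± 0.08) and Ppp1r3c (0.18 ± 0.08). Slc2a1 lies on the same chromosome as Dlgap3, 8.0 Mb away, and had log2(FC) of -0.01, 0.04 and 0.06 in the 3 comparisons.

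In bulk striatum the 4 members were Pfkfb3, Ppp1r3g, Ppp1r3c and Gys1. Ppp1r3g had 4.24, 4.16, 5.18 and 5.61 FPKM in WT and 3.10, 3.56, 3.15 and 4.70 in KO (log2(FC) -0.43 ± 0.15), and Pfkfb3 had 7.82, 9.95, 12.2 and 11.2 in WT and 7.25, 7.51, 7.29 and 9.43 in KO (-0.41 ± 0.14). In both genes 1 KO library lay within the WT range. Ppp1r3c had -0.30 ± 0.12 and Gys1 0.21 ± 0.07. In SAPAP3-cohort input and IP the same genes had 0.18 and 0.22 for Ppp1r3g, 0.01 and 0.04 for Pfkfb3, 0.18 and 0.10 for Ppp1r3c, and -0.02 and 0.10 for Gys1. Without bulk WT replicate 3, the female, the bulk values were -0.39 for Ppp1r3g, -0.32 for Pfkfb3, -0.25 for Ppp1r3c and 0.19 for Gys1. All adjusted p-values in bulk were 0.98 or above (edgeR quasi-likelihood F-test, Benjamini-Hochberg), and the difference between bulk and the SAPAP3 cohort was not tested.

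A list of 58 further genes of these pathways, of which 57 are in the table, was counted the same way. In astrocyte IP over input, 12 of the 49 that passed the filter were called higher (13.4% of all genes) and 4 lower (13.5%). Among the largest were Gys2, the liver glycogen synthase (2.78 ± 0.38), and Phka1, a subunit of phosphorylase kinase (2.39 ± 0.04), and the smallest were Hk3 (-3.82), Slc16a4 (-2.88) and Ppp1r3b (-1.43). In neuron IP 1 of 50 was called higher (0.42% of all genes), namely Pgam2, the muscle phosphoglycerate mutase (1.08). Another 5 were lower there (15.8% of all genes), with Hk3 (-3.64) and Slc16a4 (-3.56) lowest. In the interaction 12 of 51 were lower in neurons (19.1% of all genes), led by Phka1 (-3.02), Phkg1 (-2.93) and Gys2 (-2.66). Another 3 were higher (8.27% of all genes), among them Pgam2 (1.93) and Pdp1 (1.27). In SAPAP3 WT IP 7 of 50 were higher (10.9% of all genes), led by Slc2a4, the insulin-responsive glucose carrier (2.43), Phkg1 (2.16) and Phka1 (1.80). The 3 lower ones (12.1% of all genes) were Hk3, Slc16a4 and Pfkfb1. Between genotypes 0 were called in input, IP and bulk (0.00641%, 0.0263% and 0% of all genes). In neuron IP over astrocyte IP 7 of 50 were higher (8.39% of all genes), led by Pgam2 (1.87). Another 12 were lower (19.4% of all genes), led by Slc2a4 (-3.29). In neuron-cohort input over astrocyte-cohort input 2 were higher (Hkdc1 3.17, Pgm2l1 1.38) and 1 lower (Mpc1 -1.83). Of all genes 4.75% were higher there and 2.70% lower.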

How the data were processed

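RNA was sequenced from 40 mouse striatal libraries. The processing notes of the submitters name STAR, HTSeq and the build mm10, and the authors deposited raw counts per gene symbol in 1 table, whole numbers with no normalization. By the methods of the study, reads that mapped specifically to the genome were used. The exact treatment of reads with several alignments, the annotation and the strand setting are not given in the sources used here, and the labels and the methods of the study name different library kits, so counts of genes that have copies, overlap others or have an antisense partner are uncertain. All 40 columns were used and 0 were left out. From the counts, CPM and FPKM were computed here with total counts and the longest curated RefSeq transcript (GRCm38.p6). The FPKM filter below used merged exon lengths.

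Tests were run in R 4.3.3 with edgeR 4.0.16 (filterByExpr, TMM, glmQLFit and glmQLFTest), where each fit held the compared groups alone (all 16 libraries for the interaction), and Benjamini-Hochberg adjustment over all genes tested. Calls needed an adjusted p under 0.05 with a log2(FC) above 1 or below -1, and without a fold limit between genotypes. Alternatives were limma-voom 3.58.1, DESeq2 1.42.0 and its size factors, total counts, no filter, FPKM above 5 in at least 4 libraries, counts summed with identical copies, a shared spread, a replicate block, and each library left out. Isozyme shares were tested by exact permutation, two-sided (SciPy 1.17.1), whose smallest p is 0.029 for 4 against 4. Copies were found from identical 75-base windows, and windows found at over 200 places (a repeat in Pdk4) were not taken as copies. Replicates are separate animals by their labels, except that 1 animal number is given to both a WT and a KO bulk library. IP and input pair by animal in the astrocyte and SAPAP3 cohorts and by the number in the title in the neuron cohort. Deviations of same-numbered libraries correlated at 0.258 to 0.585, 0.516 to 0.696 and 0.483 to 0.791, respectively, in genes with at least 5 CPM. The fitting was tested on simulated counts. No pair of replicates was close enough to be the same library (chi-square per gene of at least 3.83).

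Members and lists were chosen with earlier results of these data known. Values are named for the largest and smallest log2(FC) within each role, isozyme set members, members with copies, and, of the other pathway genes, up to 3 highest and 3 lowest among those called. Some genes that this rule names are not reported here.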

Additional observations from a re-analysis of the deposited data

Results flagged for a closer look

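The log2(FC) of IP over input differed between the neuron and the astrocyte cohort, by the interaction term of edgeR's quasi-likelihood test, for 14 members (neuron minus astrocyte): Ppp1r3g -3.81, Aldoc -3.38, Pdk4 -3.27, Ppp1r3c -3.04, Pygm -2.64, Pygb -2.61, Pygl -2.15, Ugp2 -2.08, Gys1 -1.74, Slc2a1 -1.51, Gapdh -1.48, Pdk2 -1.36, Slc16a1 -1.21 and Hk2 -1.10. Of these, only Gapdh has most of its windows repeated elsewhere.

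In 23 of 340 combinations of a member and a group of 4, 1 library stood apart from the other 3 by Dixon's criterion (6.8%, where chance alone flags about 1 in 20). In bulk striatum these were Pfkfb3 at 48.9 CPM in KO replicate 4 (the others 37.6 to 38.9), Aldoc at 747 in KO replicate 2 (848 to 866), Pgam1 at 23.3 and Eno1 at 1.51 in KO replicate 3, Pdk2 at 37.9 in KO replicate 1 (34.9 to 35.1), and Slc16a7 at 25.4 and Pygl at 7.19 in WT replicate 2 (Pygl 4.18 to 4.64 in the others).

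In the inputs of the SAPAP3 cohort, WT replicate 1 had Hk1 at 262 CPM (327 to 331 in the others) and Pygm at 17.1 (23.3 to 23.4), WT replicate 3 had Pygl at 5.55, KO replicate 1 had Hk1 at 373 (339 to 342) and KO replicate 2 had Slc2a1 at 57.6. In the IP of that cohort, WT replicate 3 had Aldoa at 1590 (1780 to 1810) and Pgk1 at 25.6, WT replicate 4 had Slc2a1 at 78.8 (66.2 to 67.6), KO replicate 2 had Pfkm at 620, and KO replicate 4 had Pfkfb3 at 61.4 (at least 69.0 in the others), Pgk1 at 32.7 and Eno1 at 1.63. In the astrocyte-cohort inputs replicate 3 had Pgam1 at 77.0 and Slc16a7 at 20.2 (at most 16.5 in the others), and in neuron IP replicate 2 had Pfkl at 228 and replicate 3 had Slc16a1 at 33.8 (42.9 to 44.4).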

How the results depend on the processing

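Of 70 pairs of a member and a comparison that were called, 53 were tested and called under every alternative run, 5 more were called under every alternative but the FPKM filter, where they were not tested, and 2 changed sign, both Eno1 with copies summed, at 1.37 in neuron-cohort input over astrocyte-cohort input and 1.03 in neuron IP over astrocyte IP. With copies summed, the members called higher became 1 and 2 in these comparisons. With the FPKM filter, which 31 of 34 members passed in astrocyte IP over input and 29 in SAPAP3 WT IP over input, 0 members were called lower in either, as Hk2 was not tested. Slc16a7 was not tested in neuron IP over astrocyte IP, which left 0 called higher. On total counts 2 were called lower in SAPAP3 WT IP. Calls of Hk1, Ldhb, Pdha1 and Pcx in astrocyte IP, of Pfkm, Ldhb, Gbe1 and Pcx in SAPAP3 WT IP, and of Hk2 between cohorts lay near the fold limit and were lost in 1 to 8 alternatives. Hk2 in the interaction was lost without astrocyte input replicate 2, astrocyte IP replicate 4 or neuron input replicate 1 (-0.991 to -0.926). In SAPAP3 WT IP, Gbe1 was lost in 7 alternatives (0.84 to 0.999), among them without IP replicate 2 or 3 or input replicate 4, and Ldhb in 4 (0.838 to 0.989), among them without IP replicate 3 or input replicate 4.

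With the animal or number as a replicate block, 15 members were called higher and 1 lower in astrocyte IP, 0 and 3 in neuron IP, 0 and 14 in the interaction, and 13 and 1 in SAPAP3 WT IP, where Gbe1 was lost. Leaving out each library gave 15 to 17 higher in astrocyte IP, 12 to 14 in SAPAP3 WT IP, 13 to 14 lower in the interaction and 16 to 17 lower in neuron IP over astrocyte IP. Between genotypes 0 members were called under every alternative. No share passed the threshold with counts in place of reads per kilobase, with copies summed, or with merged exon lengths, the last chosen after seeing the data. These settings have the same smallest p and the same adjustment, under which the IP tests could not pass on their own. They therefore do not show how stable the shares are. Shares were not retested without single libraries, since 3 against 4 cannot pass.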
